A study of Gallus gallus with 6 samples.

Results

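The spectrin-actin membrane skeleton was followed through 9 genes in chick lens epithelial and fiber cells: SPTAN1, SPTBN1, ANK2, ANK3, TMOD1, TMOD3, ADD1, ADD3 and EPB41. Members were found by gene symbol in the deposited expression table, and all 9 were present, each as 1 of its 16561 entries. The measurements come from 6 RNA-seq libraries of White Leghorn embryos at embryonic day 13, 3 of microdissected lens epithelial cells (central and equatorial epithelium) and 3 of lens fiber cells (peripheral and central fibers). No embryo carried a treatment or an engineered allele, each library was made from cells pooled over many lenses, and a fiber library therefore averages fibers of different age.

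Spectrin is a long, flexible tetramer of alpha and beta chains that lies under the plasma membrane and ties short actin filaments into a network. Adducin and the EPB41 product (4.1R) strengthen the contact between spectrin and actin, tropomodulin caps the slow-growing end of the actin filaments, and ankyrin fastens beta spectrin to channels, pumps and adhesion proteins in the membrane. In lens fibers this network lines the whole length of the elongated cell, and in mouse its loss disturbs the regular packing and stiffness of fibers.

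Expression is given in FPKM (fragments per kilobase of transcript, scaled to the mapped fragments of the library), a level per transcript length within a library, so that levels of different genes can be set side by side. Log2(FPKM + 0.1) was fitted with limma over 10818 entries whose mean reached 0.5 FPKM, a filter that all 9 members passed, and fiber was set against epithelial. A gene was called when its Benjamini-Hochberg adjusted p was below 0.05 and its log2 fold change was above 0.4 or below -0.4, where a positive value means higher in fiber cells. The added 0.1 FPKM makes fold changes of weakly expressed genes smaller than their FPKM ratios. The median tested entry was lower in fiber cells, by -0.62 on the log2 scale, so the change of each member is also given after the log2 values of each library were centred on their median ("centred" below). Lens markers followed the labels: PAX6 and GJA1 were called lower and BFSP1, BFSP2, MIP and CRYGN were called higher in fiber cells on both scales, while the cadherin gene CDH1 was called lower only before centring. Log2 values correlated at 0.976 to 0.982 between libraries of 1 cell type and at 0.745 to 0.822 between cell types (Pearson, across genes). In bulk libraries, fewer cells of a type and less RNA per cell cannot be told apart.

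With the FPKM as deposited, SPTAN1, SPTBN1 and EPB41 rose in fiber cells, ADD1 fell, and ANK2, ANK3, TMOD1, TMOD3 and ADD3 were not called. Thus 3 of 9 members were called higher, against 13.1% of all tested entries, and 1 of 9 was called lower, against 57.7%. The median log2 fold change of the members was -0.01. After centring, 8 of 9 members were called higher, where 30.2% of all entries were, and none was called lower, where 29.3% were, with a median of 0.60. At an unadjusted limma p under 0.05, 1 member (ADD1) was lower after centring. Its limma adjusted p (0.0241) was below 0.05 as well, and only the fold threshold was missed. In 5 of the 9 genes (SPTAN1, SPTBN1, EPB41, ADD1 and ANK2) the libraries of the cell types did not overlap, which was so for 79.7% of all tested entries. With 3 libraries against 3, 0.1 is the smallest two-sided p that exact permutation of the libraries allows for 1 gene, and it was reached by these 5 genes.

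**Figure D1:**
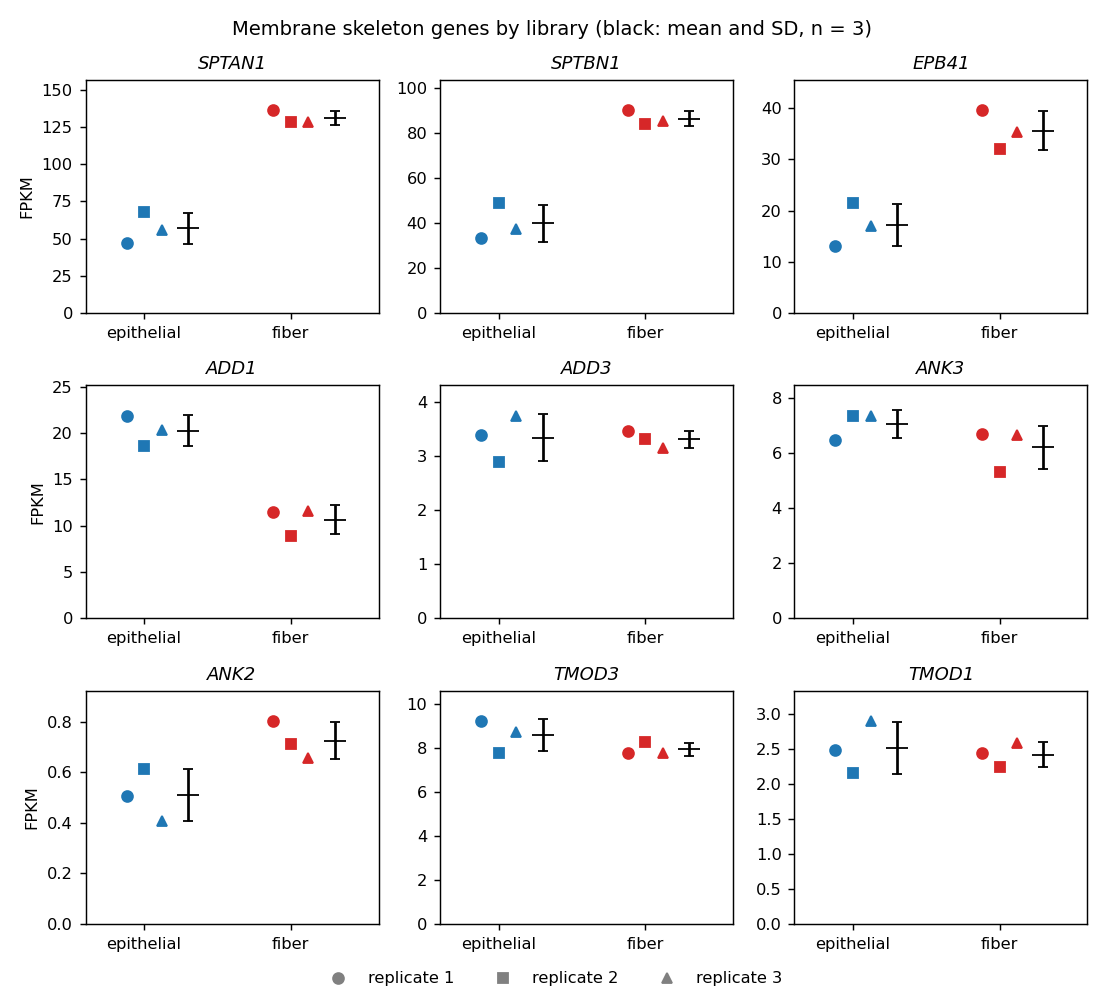
FPKM (vertical axes, each from 0) of the 9 genes in the 3 epithelial (blue) and 3 fiber (red) libraries, with marker shapes for replicate numbers and the mean and SD of each group in black. SPTAN1, SPTBN1 and EPB41 lie higher in every fiber library, ADD1 lies lower, and the groups overlap for ADD3, ANK3, TMOD3 and TMOD1.

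The spectrin chains were the most abundant members in both cell types and increased together. SPTAN1 (ENSGALG00000004719), the alpha chain of nonerythroid spectrin, had 47.0, 67.9 and 55.5 FPKM in epithelial replicates 1, 2 and 3 and 136, 128 and 128 FPKM in fiber replicates 1, 2 and 3. The lowest fiber library lay well above the highest epithelial one. The mean level was 56.8 ± 10.5 FPKM in epithelial and 131 ± 4.70 FPKM in fiber cells (SD, n = 3 each), 2.30 times as high, and the log2 fold change was 1.22 (SE 0.13, adjusted p = 6.90e-05 by limma). After centring the log2 fold change was 1.83. By mean FPKM, SPTAN1 stood at place 350 of the 10818 tested entries in epithelial cells and at place 136 in fiber cells.

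SPTBN1 (ENSGALG00000029512), the widely expressed beta chain that carries the actin-binding and ankyrin-binding sites, had 33.2, 49.1 and 37.3 FPKM in the epithelial and 90.2, 83.9 and 85.2 FPKM in the fiber libraries. Again no library of one cell type reached into the range of the other. The means were 39.9 ± 8.23 and 86.5 ± 3.32 FPKM (SD, n = 3 each), and the log2 fold change was 1.13 (SE 0.14, adjusted p = 0.000135 by limma), or 1.74 after centring.

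Because a ratio of FPKM within a library does not depend on how libraries are scaled to each other, the balance of related members was also followed as a ratio, in 4 pairs. The log2 differences and permutation tests of these ratios used FPKM + 0.1, so at low levels they are not fully free of scale. The SPTAN1 to SPTBN1 ratio was 1.41, 1.38 and 1.49 in epithelial libraries and 1.51, 1.53 and 1.50 in fiber libraries. The fiber values were higher by 0.08 on the log2 scale (exact permutation p = 0.1, two-sided, adjusted p = 0.133 over the 4 pairs), so the chains kept nearly the same proportion while both levels rose. Over the 6 libraries, the profile of SPTBN1, each gene centred on its own mean, was the second nearest to that of SPTAN1 among 10817 other entries by Euclidean distance (0.130), between TSPAN13 (0.122) and PDCD2 (0.135). EAF1 (0.179) and PDE3B (0.187) followed, and EPB41 was at place 22 (0.273). The other members were farther away, from ANK2 at place 979 to ADD1 at place 6874. These distances rest on the same 6 libraries as the fold changes and on the difference between the cell types above all.

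**Figure D2:**
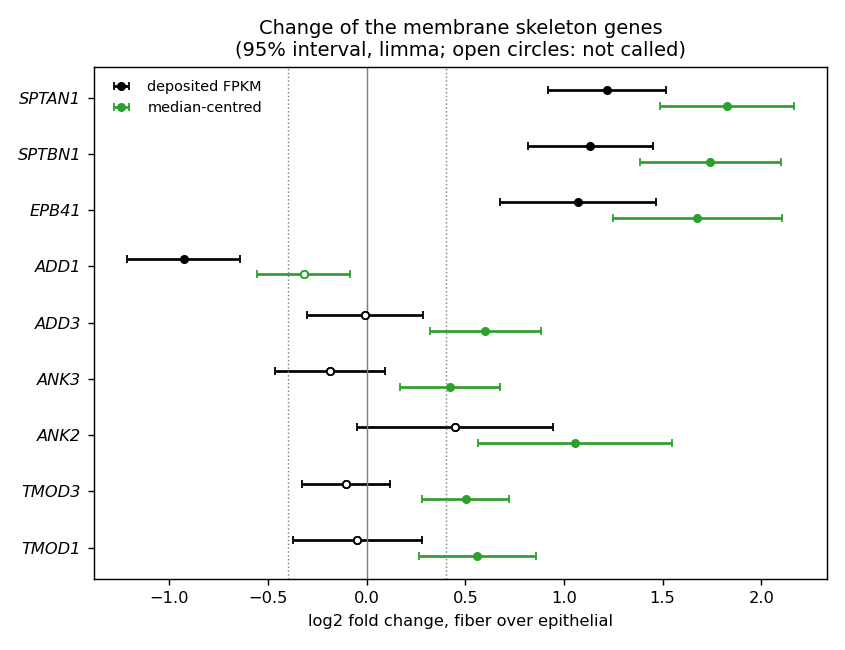
Log2 fold change of fiber over epithelial cells (horizontal axis) with 95% intervals from limma for the 9 genes, on the deposited FPKM (black) and after median centring (green). Dotted lines mark -0.4 and 0.4, and open circles mark genes not called. SPTAN1, SPTBN1 and EPB41 are called on both scales.

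EPB41 (ENSGALG00000001329) encodes 4.1R, which stabilises the complex of spectrin and actin and binds membrane proteins. Its level was 13.1, 21.4 and 17.1 FPKM in epithelial and 39.6, 32.0 and 35.3 FPKM in fiber libraries. All fiber libraries were higher than all epithelial ones. Its epithelial mean was 17.2 ± 4.13 and its fiber mean 35.6 ± 3.83 FPKM (SD, n = 3 each), and the log2 fold change was 1.07 (SE 0.17, adjusted p = 0.000618 by limma) and of 1.68 after centring.

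Its relatives went the other way. EPB41L2, EPB41L3, EPB41L4A and EPB41L5, genes of the same FERM-domain family, all fell, with log2 fold changes of -1.72, -1.39, -1.85 and -2.46 (largest limma adjusted p of the 4, 0.000101), and these calls held after centring (-1.11, -0.78, -1.25 and -1.85). EPB41L2, the most abundant of them, had 19.1, 23.0 and 21.6 FPKM in epithelial and 7.02, 4.54 and 8.07 FPKM in fiber libraries. EPB41L5 had 4.66, 4.37 and 4.23 FPKM against 0.796, 0.578 and 0.819 FPKM. No fiber library of these genes reached its lowest epithelial library. EPB41L1 had 11.0 ± 0.562 FPKM in epithelial and 10.2 ± 2.67 FPKM in fiber cells (SD, n = 3 each), with overlapping libraries and a log2 fold change of -0.13, not called, but 0.48 and called higher after centring.

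The composition of the family therefore differed between the cell types, in a comparison chosen after the values were seen and given without a test. Of the summed FPKM of these 6 genes, EPB41 held 21.9%, 30.0% and 26.2% in epithelial libraries and 60.8%, 65.8% and 61.2% in fiber libraries. EPB41L2 held 32.5% ± 0.703 in epithelial and 11.4% ± 2.37 in fiber cells (SD, n = 3 each), and EPB41L5 6.80% ± 0.856 and 1.28% ± 0.125. EPB41 went from holding less than EPB41L2 in each epithelial library to the largest share in each fiber library. The sum itself was 65.4 ± 5.67 FPKM in epithelial and 57.1 ± 8.30 FPKM in fiber cells, with overlapping libraries.

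**Figure D3:**
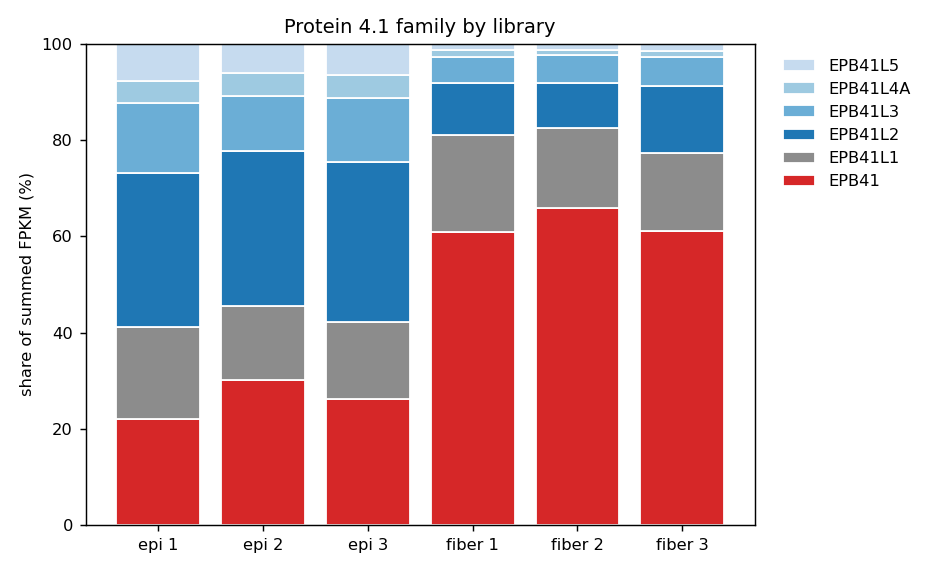
Share of each of the 6 EPB41 family genes in their summed FPKM (vertical axis, percent) in every library. EPB41 (red) holds 21.9% to 30.0% in the epithelial and 60.8% to 65.8% in the fiber libraries, and the shares of EPB41L2, EPB41L3, EPB41L4A and EPB41L5 (blue shades) are smaller in each fiber library.

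The paper lists predicted transcription factor sites in differentially methylated regions, drawn only from differentially expressed genes. For genes higher in fiber cells it used regions less methylated there, and for genes higher in epithelial cells regions more methylated in fiber cells. In the listed sites, opposite directions of methylation and expression therefore follow from this selection. Short sequences listed there for SPTBN1 are shown as predictions, and whether they regulate SPTBN1 was not tested. Each is printed 5′ to 3′ on the listed strand, in capitals throughout because the whole run is the predicted site, with galGal6 positions. The first site (minus strand) lies in an intron, and the other two (plus and minus strand) lie in a region annotated both as promoter and as intron. The levels measured here do not show whether a factor binds there.
SPTBN1 NFATC1 and NFATC3 site, chr3:2757245-2757254: TCTTTCCATT
SPTBN1 MEF2A and MEF2D site, chr3:2787378-2787389: GCTAAAAATATC
SPTBN1 NFAT5, NFATC1 and NFATC3 site, chr3:2787485-2787494: TTTTTCCACC

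The adducin genes parted. ADD1 (ENSGALG00000015664) encodes alpha adducin, the subunit shared by adducin complexes, which cap the fast-growing end of actin filaments and recruit spectrin to it. Its level was 21.9, 18.6 and 20.3 FPKM in epithelial and 11.5, 8.88 and 11.6 FPKM in fiber libraries. Every fiber library was lower. The mean fell from 20.2 ± 1.66 to 10.7 ± 1.54 FPKM (SD, n = 3 each), and the log2 fold change was -0.93 (SE 0.12, adjusted p = 0.000231 by limma). After centring it was -0.32 (95% interval -0.55 to -0.08, limma adjusted p = 0.0241). That is short of the fold threshold alone, so that the call of ADD1 rests on the scale used.
ADD3 (ENSGALG00000008542), gamma adducin, the usual partner of the alpha subunit outside blood cells and neurons, had 3.38, 2.88 and 3.74 FPKM in epithelial and 3.45, 3.32 and 3.14 FPKM in fiber libraries. The fiber values lay inside the epithelial range. Its log2 fold change was -0.01 (95% interval -0.30 to 0.29, limma adjusted p = 0.964), and 0.60 and called higher after centring. The ADD1 to ADD3 ratio was 6.48, 6.44 and 5.43 in epithelial libraries and 3.33, 2.68 and 3.70 in fiber libraries, a difference of -0.92 on the log2 scale (exact permutation p = 0.1, two-sided, the smallest possible, adjusted p = 0.133). ADD1 thus stayed the more abundant transcript per length in every library, by a smaller factor in fiber cells. ADD2, the beta subunit known from blood cells and brain, was at or below 0.314 FPKM in all libraries and was left out of the test by the filter.

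Among ankyrins, ANK3 was the main transcript in both cell types. ANK3 (ENSGALG00000003135), ankyrin-G, which anchors channels and adhesion proteins at lateral membranes, had 6.46, 7.32 and 7.35 FPKM in epithelial and 6.67, 5.31 and 6.64 FPKM in fiber libraries. The groups overlapped, and the log2 fold change was -0.19 (95% interval -0.46 to 0.09, limma adjusted p = 0.188). After centring its sign turned, to 0.42, and it was called higher.
ANK2 (ENSGALG00000012044), ankyrin-B, which in mouse lens fibers binds NrCAM, was the least abundant member, with 0.508, 0.614 and 0.406 FPKM in epithelial and 0.802, 0.713 and 0.657 FPKM in fiber libraries. The fiber libraries were all higher, yet the spread was wide for so low a level. The log2 fold change was 0.45 (95% interval -0.05 to 0.94, limma adjusted p = 0.0886), not called, and 1.06 and called higher after centring (limma adjusted p = 0.00302).
The ANK3 to ANK2 ratio was 12.7, 11.9 and 18.1 in epithelial and 8.31, 7.44 and 10.1 in fiber libraries. This difference of -0.63 on the log2 scale did not overlap between cell types (exact permutation p = 0.1, two-sided, adjusted p = 0.133). ANK1, the ankyrin of red cells, rose from 0.192, 0.611 and 0.392 FPKM to 1.10, 0.872 and 0.767 FPKM, with a log2 fold change of 1.10 (limma adjusted p = 0.0164), a call lost without fiber replicate 1 (limma adjusted p = 0.0566). Of the summed ankyrin FPKM, ANK3 took 88.7% ± 2.62 in epithelial and 79.0% ± 2.88 in fiber cells (SD, n = 3 each), again a description chosen after the values were seen.

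The tropomodulins showed no call on the deposited scale. TMOD3 (ENSGALG00000004710), the widely expressed tropomodulin, had 9.24, 7.80 and 8.73 FPKM in epithelial and 7.78, 8.30 and 7.78 FPKM in fiber libraries. Its log2 fold change was -0.11 (95% interval -0.33 to 0.12, limma adjusted p = 0.336). TMOD1 (ENSGALG00000002125), the form known from red cells and, in mouse, from lens fibers, had 2.49, 2.16 and 2.90 FPKM in epithelial and 2.44, 2.24 and 2.58 FPKM in fiber libraries. Its log2 fold change was -0.05 (95% interval -0.38 to 0.28, limma adjusted p = 0.773). The libraries of the cell types overlapped for both genes, and a change in FPKM beyond these intervals was not seen in either. After centring, the sign of both genes turned and both were called higher, at 0.50 and 0.56.
The TMOD1 to TMOD3 ratio was 0.269, 0.277 and 0.332 in epithelial and 0.313, 0.269 and 0.332 in fiber libraries, a difference of 0.06 on the log2 scale (exact permutation p = 0.7, two-sided, adjusted p = 0.7). TMOD4, a skeletal muscle form, had 4.11 ± 0.877 FPKM in epithelial and 4.61 ± 1.05 FPKM in fiber cells (SD, n = 3 each), above TMOD1 in each library. TMOD2, known from neurons, had 1.22 ± 0.319 and 1.26 ± 0.150 FPKM. Neither was called before centring, with log2 fold changes of 0.16 and 0.08, and both were called higher after it. TMOD3 held 52.5% ± 3.36 of the summed FPKM of the 4 tropomodulins in epithelial and 49.0% ± 2.25 in fiber cells, with overlapping libraries. Their sum was 16.4 ± 2.18 and 16.2 ± 1.08 FPKM (SD, n = 3 each).

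The order of the levels also differed. In epithelial cells the mean FPKM ranked SPTAN1, SPTBN1, ADD1, EPB41, TMOD3, ANK3, ADD3, TMOD1 and ANK2, and the libraries of neighbours overlapped for SPTAN1 and SPTBN1, for ADD1 and EPB41, and for ADD3 and TMOD1. In fiber cells EPB41 stood before ADD1, the rest of the order was the same, and no neighbours overlapped. SPTAN1 exceeded TMOD3 in FPKM by a far wider margin in fiber cells than in epithelial cells, since the spectrin level rose and the tropomodulin level did not pass the test.

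The epithelial libraries differed among themselves, and the members that rose shared that spread. For SPTAN1, SPTBN1 and EPB41, epithelial replicate 1 was lowest and replicate 2 highest, by factors of 1.44, 1.48 and 1.63. The fiber genes BFSP1, BFSP2 and CRYGN had the same order, with 1.95, 1.82 and 1.66 times as much FPKM in epithelial replicate 2 as in replicate 1, and MIP had 1.51 times as much. TMOD1, TMOD3, ADD1 and ADD3 were lowest in epithelial replicate 2 (0.844 to 0.869 times replicate 1). The summed FPKM of the 5 fiber markers found ranged from 707 to 1240 in epithelial and from 6270 to 6400 in fiber libraries. How much fiber material in the epithelial libraries contributes to the members' levels was not tested. With any 1 of the 6 libraries left out, the 4 members called stayed called in the same direction, SPTAN1 with log2 fold changes of 1.09 to 1.35, SPTBN1 of 1.01 to 1.29, EPB41 of 0.89 to 1.24 and ADD1 of -0.99 to -0.80.

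**Figure D4:**
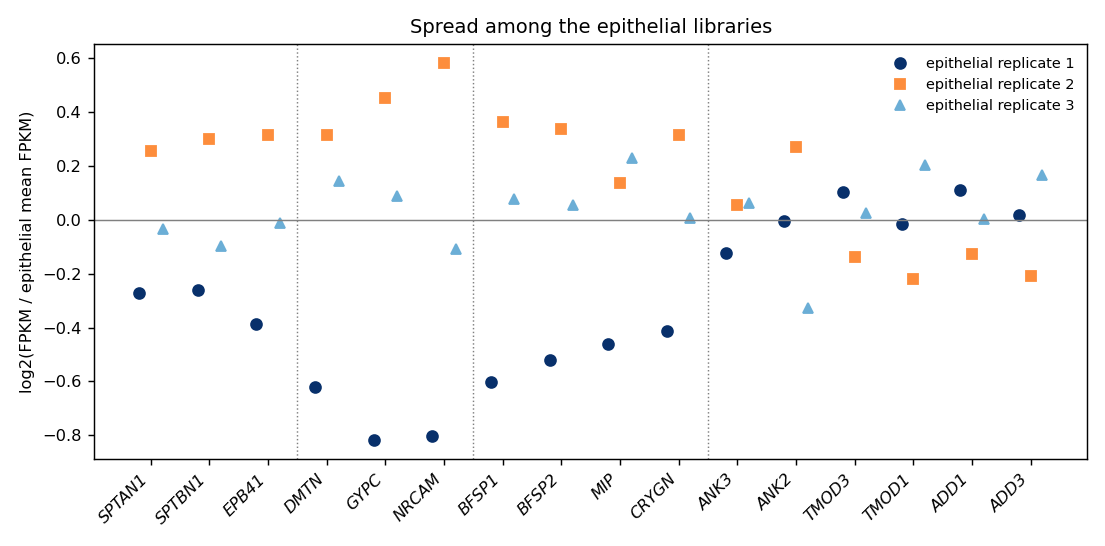
Log2 of the FPKM of each epithelial library over the epithelial mean of the gene (vertical axis), for the members that rose, related genes, fiber markers and the other members, divided by dotted lines. Epithelial replicate 1 (dark circles) is lowest for SPTAN1, SPTBN1, EPB41 and the 4 plotted fiber markers, and replicate 2 (orange squares) is highest for each of these except MIP.

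Other components of the network were read from 3 lists. Of 21 paralogs and further components, 16 were found by symbol and 11 passed the filter. Of these 11, 2 were called higher and 5 lower, against 13.1% and 57.7% of all tested entries. Their median log2 fold change was -0.13. After centring, 6 were called higher and 5 lower, where 30.2% and 29.3% of all entries were. DMTN, encoding dematin, which bundles actin filaments and binds spectrin in red cells, changed most: it had 3.73, 7.13 and 6.33 FPKM in epithelial and 48.8, 55.5 and 55.3 FPKM in fiber libraries. The fiber mean was 9.29 times the epithelial one, with a log2 fold change of 3.24 (SE 0.22, adjusted p = 8.30e-06 by limma), a larger step than that of any member. MPP1, a membrane scaffold that joins 4.1R and glycophorin C in red cells, had 21.5 ± 1.04 FPKM in epithelial and 26.8 ± 1.57 FPKM in fiber cells (SD, n = 3 each). Its log2 fold change of 0.31 was below the threshold, and 0.92 and called after centring. EPB42, another red cell membrane protein, fell from 1.77 ± 0.170 to 0.569 ± 0.217 FPKM on both scales (log2 fold changes -1.53 and -0.92). LMOD2 and LMOD3, leiomodins known from striated muscle, stayed below the filter with at most 0.726 and 0.701 FPKM, and SPTBN5 and LMOD1 were listed at the floor of 0.0001 FPKM in all libraries.

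Of 9 actin filament genes, 8 were found and tested. Of these, 2 were called higher and 3 lower (median log2 fold change -0.29), against 13.1% and 57.7% of all tested entries. After centring 4 were called higher and none lower, where 30.2% and 29.3% of all entries were. None was lower after centring at an unadjusted limma p under 0.05 either. Both capping protein subunits called higher were so on both scales. CAPZB, the beta subunit of the complex that caps fast-growing filament ends, had 28.6, 31.0 and 28.7 FPKM in epithelial and 50.8, 61.1 and 60.0 FPKM in fiber libraries, a log2 fold change of 0.96 (limma adjusted p = 4.68e-05). CAPZA1, an alpha subunit, rose from 108 ± 6.98 to 147 ± 2.89 FPKM (SD, n = 3 each), a log2 fold change of 0.45 that no longer passed when limma tested against 0.4. CAPZA2 had a log2 fold change of -0.17 and was not called before centring. ACTB, cytoplasmic beta actin, fell from 832 ± 69.2 to 440 ± 97.4 FPKM (SD, n = 3 each; log2 fold change -0.94, limma adjusted p = 0.00107), and was not called after centring (-0.33).

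Of 12 membrane proteins that the network can bind, 11 were found and 9 tested. Of these, 2 were called higher and 4 lower, against 13.1% and 57.7% of all tested entries. Their median log2 fold change was -0.54, beside -0.62 over all tested entries. After centring, 4 were called higher and 1 lower, where 30.2% and 29.3% of all entries were. GYPC, glycophorin C, the membrane anchor of 4.1R in red cells, had 12.4, 29.8 and 23.2 FPKM in epithelial and 139, 165 and 61.3 FPKM in fiber libraries. The groups did not overlap although fiber replicate 3 was far below the other two, and the log2 fold change was 2.45 (SE 0.42, adjusted p = 0.000860 by limma). NRCAM, an adhesion protein bound by ankyrins and named here after its values were seen, rose from 3.04, 7.94 and 4.92 FPKM to 18.9, 15.9 and 18.6 FPKM (log2 fold change 1.83, limma adjusted p = 0.000633). ATP1B1, the beta subunit of the sodium pump, had 27.5 ± 3.55 and 28.2 ± 2.45 FPKM, and was not called before centring. CDH2, N-cadherin, fell from 114 ± 3.38 to 65.2 ± 5.69 FPKM (log2 fold change -0.81, limma adjusted p = 7.48e-05), and was not called after centring (-0.20). DAG1, dystroglycan, also named after its values were seen, had 16.7, 3.06 and 16.0 FPKM in epithelial and 4.77, 3.91 and 4.29 FPKM in fiber libraries. It was not called with all libraries, and was called lower without epithelial replicate 2 (log2 fold change -1.90, limma adjusted p = 3.00e-05).

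**Figure D5:**
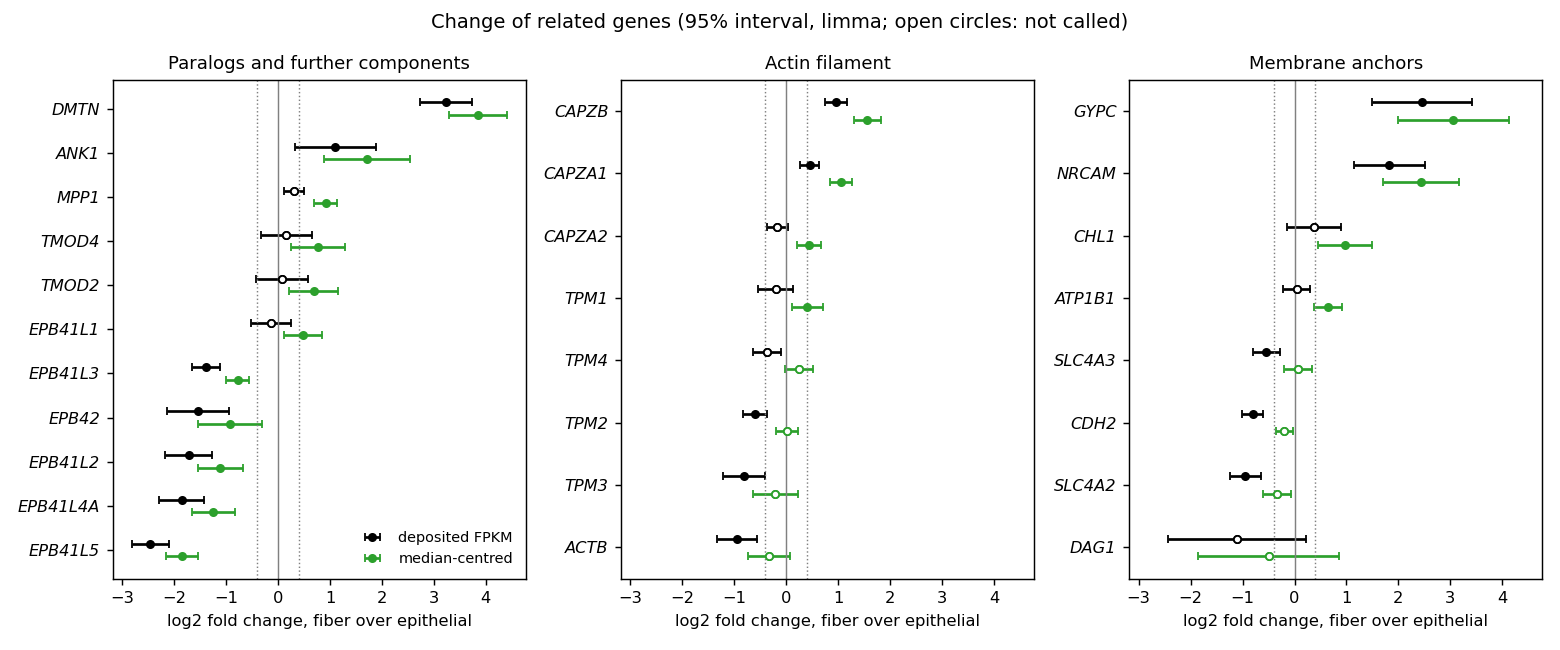
Log2 fold change of fiber over epithelial cells (horizontal axes) with 95% limma intervals for the tested paralogs and actin filament genes and 8 of the 9 tested membrane anchors, on the deposited FPKM (black) and after median centring (green), with open circles for genes not called. DMTN, CAPZB, GYPC and NRCAM lie clearly above 0 on both scales, and EPB41L5 lies lowest.

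Since EPB41, DMTN, GYPC and ANK1 are also red cell genes, markers of other cells were read beside them. Of 14 red cell markers, 9 were found, in 10 entries. Their summed level was 0.0852 to 0.275 FPKM in epithelial and 8.38 to 14.2 FPKM in fiber libraries, most of it from HBZ (5.29 to 7.50 FPKM in fiber libraries) and HBA1 (2.22 to 6.59 FPKM). The red cell membrane protein RHAG was listed at the floor in all 6 libraries, SLC4A1 (band 3, the anion exchanger that ankyrin binds in red cells) reached at most 0.0365 FPKM, and the transcription factors TAL1 and GFI1B at most 0.0249 and 0.0241 FPKM. Markers of skeletal muscle summed to at most 1.72 FPKM and those of pigment cells to at most 3.30 FPKM in any library. Neural markers summed to 2.26 to 3.13 FPKM in epithelial and 6.01 to 8.70 FPKM in fiber libraries. Of this, NEFL took 3.85 to 6.14 FPKM in fiber libraries. ELAVL4 had 1.44 to 2.25 FPKM in epithelial and 1.94 to 3.08 FPKM in fiber libraries, while STMN2 and SNAP25 were at or below 0.0464 FPKM. Connective tissue markers summed to 57.8 to 69.0 and 14.3 to 17.5 FPKM, most of it from PDGFRA in each library. In fiber libraries DCN also contributed (5.19 to 6.38 FPKM). COL1A1, COL1A2, COL3A1 and LUM were at or below 0.0828, 0.468, 0.786 and 0.110 FPKM in all libraries. PDGFRA was called lower in fiber cells on both scales (log2 fold changes -2.64 and -2.03). Whether its transcripts came from connective tissue or from lens cells was not tested.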

How the data were processed

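RNA was measured by RNA-seq in 3 epithelial and 3 fiber libraries, which the labels number as replicates and the paper describes as biological triplicates. The authors made stranded total RNA libraries, trimmed paired-end reads with Cutadapt, mapped them to galGal6 (Ensembl annotation) with Bowtie2 and HISAT2, assembled transcripts with StringTie and gffcompare and named edgeR for expression levels; versions of these tools are not given in the sources used here. The deposited values are FPKM per gene and library, with 0.0001 in place of 0. The FPKM columns and the authors' average FPKM hold no read counts, so depth and counting error are unknown and the replicates alone set the precision. The deposited fold change ratio, log2 fold change, p-value and q-value columns hold the authors' own comparison and were not used.

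Libraries were grouped by cell type. Entries averaging under 0.5 FPKM (5743) were left out, and log2(FPKM + 0.1) of the other 10818 was fitted across all genes with limma 3.58.1 in R 4.3.3 with a mean-variance trend, without covariates, and adjusted by the Benjamini-Hochberg method. The fit was checked on simulated data. FPKM are relative within a library, so a few very abundant transcripts can shift all others. Centring removes any shift shared by all entries, whatever its source, and takes the median entry as unchanged. That assumption was not tested. Single genes and the 4 ratios were tested by exact permutation. No member shared its values with another entry. Members and lists were chosen with earlier results of these data known. Named genes were all members, all detected paralogs, the 4 genes with the highest mean FPKM of each further list and the 5 profiles nearest SPTAN1. Alternatives were pseudocounts of 1 and 0.01, other filters and scalings, other limma settings, a replicate block and leaving out each library. Gene positions are not given, since the RefSeq table used for symbols is of another assembly. Some genes and predicted sites that these rules name are not reported here.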

Additional observations from a re-analysis of the deposited data

How the results depend on the processing

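SPTAN1, SPTBN1 and EPB41 were called higher under each of the 19 alternatives run. ADD1 was called lower under all of them except median centring (-0.32). The uncalled members depended on scaling. ANK3 turned to 0.11 with division by the 75th percentile, 0.42 with median centring, 0.20 with quantile normalization and 0.0355 without the δ-crystallin entries. The same 4 settings gave 0.29, 0.60, 0.64 and 0.21 for ADD3, 0.25, 0.56, 0.72 and 0.17 for TMOD1, and 0.19, 0.50, 0.20 and 0.12 for TMOD3. With 1 library left out, ADD3 lay between -0.10 and 0.078 and TMOD1 between -0.15 and 0.0559.
ANK2 was called higher with median centring (1.06), division by the 75th percentile (0.71), quantile normalization (1.62), no δ-crystallin entries (0.65) and no mean-variance trend (0.45).

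Members called higher numbered 8 with median centring and 6 with quantile normalization instead of 3, and those called lower 0 instead of 1 with median centring. Paralogs called higher numbered 6 and 5 under these scalings, 1 with a mean of at least 1 FPKM or with treat, and 1 to 2 with a library left out. Actin filament genes called higher numbered 4 under both and 1 with treat, and those called lower 0 with median centring. Membrane anchors called higher numbered 4 and those called lower 1 with median centring, and those lower 2 with quantile normalization. Over all entries, median centring gave 3263 higher and 3167 lower instead of 1415 and 6240, quantile normalization gave 2884 and 3228, and division by the 75th percentile gave 2131 higher. Quantile normalization moved the log2 ratio changes of ADD1 to ADD3, ANK3 to ANK2, SPTAN1 to SPTBN1 and TMOD1 to TMOD3 to -1.40, -1.42, 0.15 and 0.52, and a pseudocount of 1 moved that of ANK3 to ANK2 to -0.36. Quantile normalization sets values by rank and so does not keep ratios within a library. A pseudocount of 1 FPKM is above every value of ANK2, and with it the log2 fold change of ANK2 was 0.19. The cause of the other moves was not tested.

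Whether same-numbered libraries came from the same lenses is not stated in the labels. The paper says that the lenses of each replicate were dissected into both cell types. Deviations from the group means correlated at 0.0858, 0.0659 and 0.0666 between same-numbered libraries. Between the others they correlated at -0.0496 to -0.0235, so each library correlated best with its own number. Because deviations from a group mean cancel within the group, the negative values follow from the positive ones and are not separate evidence. The main fit did not use a pairing. With a replicate block 3 members were called higher and 1 lower, as without it. Depth is unknown, so the precision of low values such as those of ANK2 cannot be set from counts.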
